A study of Ovis aries with 16 samples.

Results

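The genes described here are markers of alveolar type 1 cells, measured in the lungs of newborn lambs with and without a surgical shunt. The group was defined as AGER, PDPN, CLIC5, HOPX, EMP2 and GPRC5A, and its members were all probe sets that the platform's table assigned to 1 of these symbols alone. Of the 6 genes, 5 had such a probe set, and EMP2, with none, was not analysed here. AGER had 2 probe sets, which gave 6 probe sets among the 24016 that were tested. The rule uses no measured value, but the genes were proposed with earlier results of these data known. Probe sets differ in how well they bind, so levels of different genes are not ranked, and signal percentiles are given only to say whether a probe set was dim.

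Peripheral lung RNA from 16 lambs was hybridized to 16 arrays, 8 from shunt lambs and 8 from control lambs. Shunt lambs, a model of congenital heart disease in which more blood flows through the lung, had received in utero, 9 ± 6 days before term, a graft 8.0 mm wide and 2 mm long that joined the ascending aorta to the main pulmonary artery. Control lambs came from ewes that had a sham operation. All lambs were born by spontaneous delivery and were studied at 3 days of age. The labels give no breed, sex or litter, and no label says in so many words that each array is a separate lamb, so p-values measure the spread between arrays. The probe sets are bovine and the RNA is ovine, so a sequence difference can lower a signal without any change in RNA.

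Alveolar type 1 cells are thin, flat epithelial cells that cover most of the gas exchange surface of the lung and lie against the capillaries. Type 2 cells lie between them, make surfactant and act as progenitors of type 1 cells. AGER is the receptor for advanced glycation end products and is far more abundant in lung than in most other organs. PDPN (podoplanin) is a mucin-type membrane glycoprotein that is also found on lymphatic endothelium and mesothelium. CLIC5 belongs to the chloride intracellular channel family and links the membrane to the actin cytoskeleton. HOPX is a homeodomain protein that does not bind DNA and acts through other transcription factors. GPRC5A is an orphan G protein-coupled receptor induced by retinoic acid.

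All 6 probe sets gave a usable signal in every lamb, from percentile 61.4 (CLIC5) to 98.3 (PDPN) of the mean signals of all probe sets. The mean was lower in shunt than in control lung for all 6, where 55.1% of all probe sets had a lower mean in shunt. None of the 6 passed the test over all probe sets (limma, Benjamini-Hochberg adjusted p under 0.05), where 0.0708% of all probe sets passed (0.0666% higher and 0.00416% lower). None had all shunt lambs below all control lambs either, as 0.075% of all probe sets did. At an unadjusted p under 0.05, 3 of 6 were lower and 0 higher, namely GPRC5A, CLIC5 and PDPN, and 7.32% of all probe sets were lower and 6.42% higher at that level. In whole lung RNA, fewer cells of a type and less RNA per cell cannot be told apart.

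GPRC5A had the smallest p of the 5 genes. Its log2 level ran from 9.59 over a median of 9.89 to 10.19 in shunt lambs, and from 9.91 over 10.21 to 10.62 in control lambs. Of the 8 shunt lambs, 4 lay below the lowest control lamb and all 8 below the control mean, and 5 control lambs lay above the highest shunt lamb, so the groups overlapped only in part. The means were 9.88 ± 0.20 in shunt and 10.23 ± 0.24 in control (SD, n = 8 each). The log2 difference, shunt minus control, was -0.35 ± 0.10 (SE, 95% interval -0.56 to -0.13), a level 21.3% lower on the linear scale. It did not pass over all probe sets (limma adjusted p = 0.209), and the exact permutation p of this single difference was 0.00684.

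CLIC5 differed by about as much, but with far wider scatter in control lung. In shunt lambs its log2 level ran from 7.39 over a median of 7.62 to 7.87, and in control lambs from 7.62 over 7.78 to 8.61. The high end was set by control replicates 5 and 2, at 8.61 and 8.48, while 5 of 8 control lambs lay inside the shunt range. The means were 7.62 ± 0.15 in shunt and 7.97 ± 0.39 in control (SD, n = 8 each). The difference was -0.34 ± 0.13 (SE, 95% interval -0.62 to -0.07, limma adjusted p = 0.281, exact permutation p = 0.0241). Every shunt lamb was below the control mean. Without control replicate 5 the difference was -0.25, and without control replicate 2, the array that stood apart from the rest, it was -0.27.

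PDPN was lower by a smaller amount. Its log2 level ran from 11.72 over 12.09 to 12.29 in shunt lambs and from 12.04 over 12.31 to 12.53 in control lambs. Again 4 shunt lambs lay below every control lamb and 5 control lambs above every shunt lamb, while the other lambs of the groups overlapped. The means were 12.07 ± 0.19 in shunt and 12.26 ± 0.16 in control (SD, n = 8 each), and the difference was -0.19 ± 0.08 (SE, 95% interval -0.37 to -0.02, limma adjusted p = 0.337, exact permutation p = 0.0462). Its unadjusted p moved across 0.05 easily. With each array centred on its median the difference was -0.17 and the unadjusted p = 0.0650 (limma), and it was above 0.05 in 8 of the 16 fits that left out 1 array. Other settings lowered the PDPN p. Quantile normalization again gave -0.22 and cyclic loess -0.23 (limma unadjusted p = 0.00646 and 0.00666). With the replicate number as a block the limma unadjusted p was 0.00985.

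AGER was read by a pair of probe sets that agreed in direction and size. The brighter one, of a kind whose probes match more than 1 transcript, ran from 11.14 over 11.30 to 11.63 in shunt lambs and from 11.09 over 11.51 to 11.84 in control lambs. The dimmer one ran from 10.50 over 10.66 to 11.04 in shunt and from 10.37 over 10.90 to 11.21 in control. With either probe set the lowest control lamb lay below every shunt lamb, so the shunt range fell inside the control range. The differences were -0.15 ± 0.10 (SE, 95% interval -0.36 to 0.06, limma adjusted p = 0.504) and -0.13 ± 0.11 (95% interval -0.36 to 0.10, limma adjusted p = 0.604). In each case 7 of 8 shunt lambs were below the control mean, the exception being shunt replicate 1. The intervals leave room for no difference and for one as large as that of GPRC5A.

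HOPX showed the smallest difference. It ran from 11.82 over 12.08 to 12.17 in shunt lambs and from 11.60 over 12.10 to 12.39 in control lambs, and 4 of 8 shunt lambs were below the control mean. The means were 12.06 ± 0.11 in shunt and 12.09 ± 0.24 in control (SD, n = 8 each), with a difference of -0.03 ± 0.09 (SE, 95% interval -0.21 to 0.16, limma adjusted p = 0.914). Leaving out any 1 of shunt replicate 2, control replicate 3 and control replicate 6 turned the sign, so no direction can be given for HOPX. Single control lambs moved the AGER values in either direction. Control replicate 7 was the lowest of the control lambs for HOPX (11.60), PDPN (12.04) and both AGER probe sets, and without it the unadjusted p of the brighter AGER probe set was 0.0413 (limma, difference -0.21). Control replicate 4 was the highest of the control lambs for both AGER probe sets, and without it the differences were -0.10 (limma unadjusted p = 0.314) and -0.08.

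**Figure D1:**
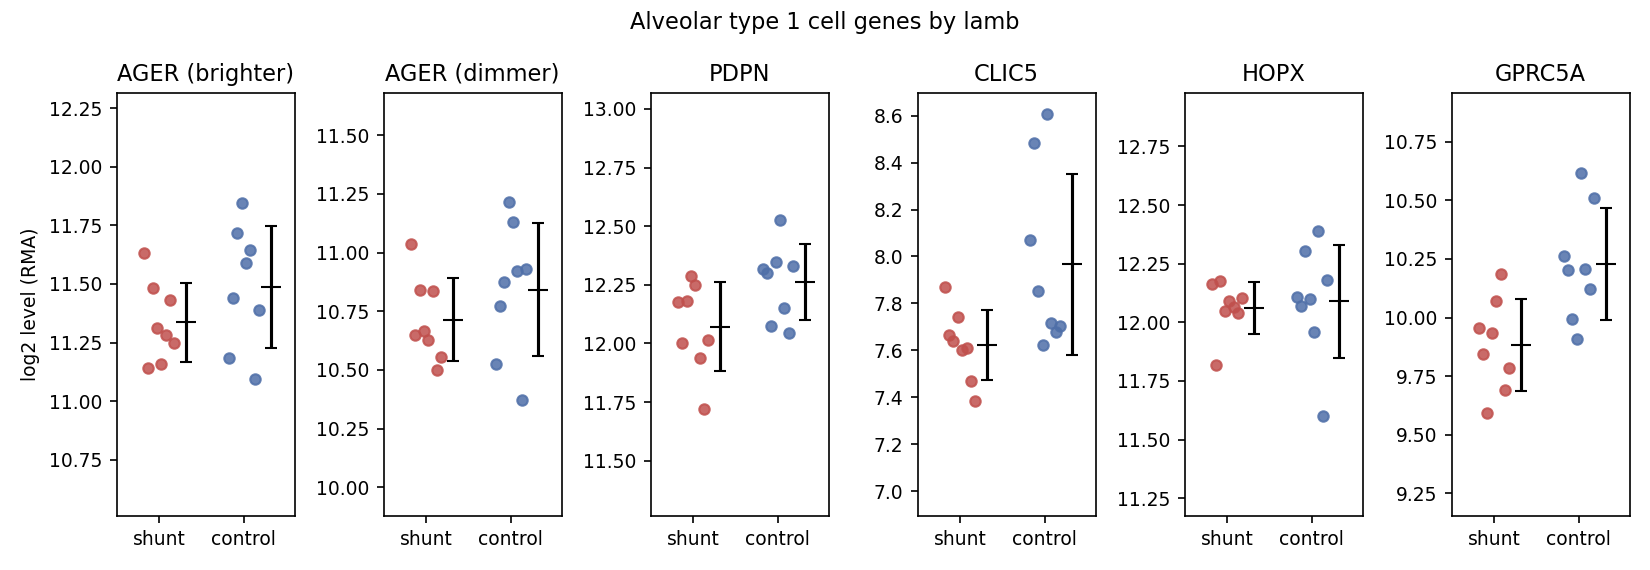
Log2 level (RMA) of the 6 probe sets in each lamb, with 1 point per lamb and the mean ± SD beside the points (n = 8 shunt, n = 8 control); every panel spans the same height. GPRC5A and PDPN are shifted lower in shunt, CLIC5 has a pair of control lambs at 8.48 and 8.61, and all HOPX values of shunt lambs lie within the control range.

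The scatter between lambs was narrower in shunt than in control for AGER, CLIC5, HOPX and GPRC5A, and this is given as a description with no test. The SD in shunt over that in control was 0.39 for CLIC5, 0.46 for HOPX, 0.65 and 0.62 for the AGER probe sets, 0.82 for GPRC5A and 1.18 for PDPN. The median of this ratio over all probe sets was also below 1, at 0.82. Against it, CLIC5 and HOPX stood at percentiles 6.39 and 11.5 of all probe sets, and GPRC5A at the middle of them. Single control lambs weighed on these values. The largest deviations from the control mean were 0.64 and 0.52 for CLIC5 (replicates 5 and 2) and -0.49 for HOPX (replicate 7). The ratios were not computed without these lambs.

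Whether the members differed from each other in their shift was tested with the difference of each pair of genes within a lamb, whose own size has no meaning across probe sets and of which only the change between groups is read. For HOPX minus GPRC5A it was 2.18 ± 0.23 in shunt and 1.86 ± 0.35 in control (SD, n = 8 each), which is higher by 0.32 in shunt, with all 8 shunt lambs above the mean of control (exact permutation p = 0.0521, adjusted p = 0.372 over 10 pairs). For CLIC5 minus HOPX it was -4.44 ± 0.18 in shunt and -4.12 ± 0.48 in control, a difference of -0.32 (exact permutation p = 0.105, adjusted p = 0.372). The remaining 8 pairs had exact permutation p-values of 0.176 and above. Unequal shifts of the 5 genes were therefore not shown, although their estimates ran from -0.03 to -0.35.

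The design also asked whether the members varied together from lamb to lamb. Each lamb's deviation from its own group mean was used, so that the difference between groups could not create a correlation, and every correlation below shares the array of each lamb. The 2 AGER probe sets had Pearson r = 0.81 over the 16 lambs (Spearman rho = 0.62, permutation p = 0.00062 and 0.0169), which shows how closely 2 readings of 1 gene tracked each other on these arrays. Without control replicates 4 and 7, the lambs farthest from the median, r was 0.66.

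Among the 10 pairs of different genes, r ran from -0.30 to 0.61, and none passed after adjustment over the 10 pairs. AGER and HOPX had the highest, r = 0.61 (rho = 0.48, permutation p = 0.0259 and 0.0769, adjusted p = 0.145 and 0.615), with 0.63 within shunt lambs and 0.61 within control lambs (exact permutation p = 0.0857 and 0.101). Without the lambs farthest from the median of AGER, control replicates 4 and 7, it was 0.52 (permutation p = 0.0744), and without control replicate 7 alone 0.40. With the dimmer AGER probe set r was 0.47. PDPN and CLIC5 had r = 0.52 (rho = 0.31, permutation p = 0.0290 and 0.269, adjusted p = 0.145 and 0.615), with 0.58 within shunt and 0.60 within control (exact permutation p = 0.126 and 0.123). Without control replicate 7 and shunt replicate 7 it was 0.48 (permutation p = 0.101), and without control replicate 5 it was 0.36.

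GPRC5A had r = 0.45 with CLIC5 (rho = 0.40) and 0.41 with PDPN (rho = 0.29), with permutation p-values of 0.115 and 0.119 for r and 0.140 and 0.307 for rho, and r of 0.24 and 0.31 without the 2 lambs farthest from the median. The other pairs were near 0 or below it. AGER had r = 0.04 with CLIC5, 0.11 with PDPN and -0.30 with GPRC5A, and HOPX had 0.12 with PDPN, -0.09 with CLIC5 and -0.07 with GPRC5A. The permutation p-values of these 6 for r ran from 0.296 to 0.909. The AGER values turned on the probe set, since the dimmer one had r = 0.47 with PDPN, 0.23 with CLIC5 and 0.16 with GPRC5A. For AGER with CLIC5, r was 0.43 within shunt and -0.060 within control for the brighter probe set (exact permutation p = 0.284 and 0.887). For the dimmer probe set r was 0.77 within shunt and 0.10 within control (exact permutation p = 0.0244 and 0.830, adjusted p = 0.122 and 0.830 over its 5 relations), and the difference between the groups was not tested. For scale, between the 5th and 95th percentile of all other probe sets r with AGER ran from -0.51 to 0.52, and with PDPN from -0.56 to 0.54, so AGER with HOPX lay above its range and PDPN with CLIC5 inside it.

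**Figure D2:**
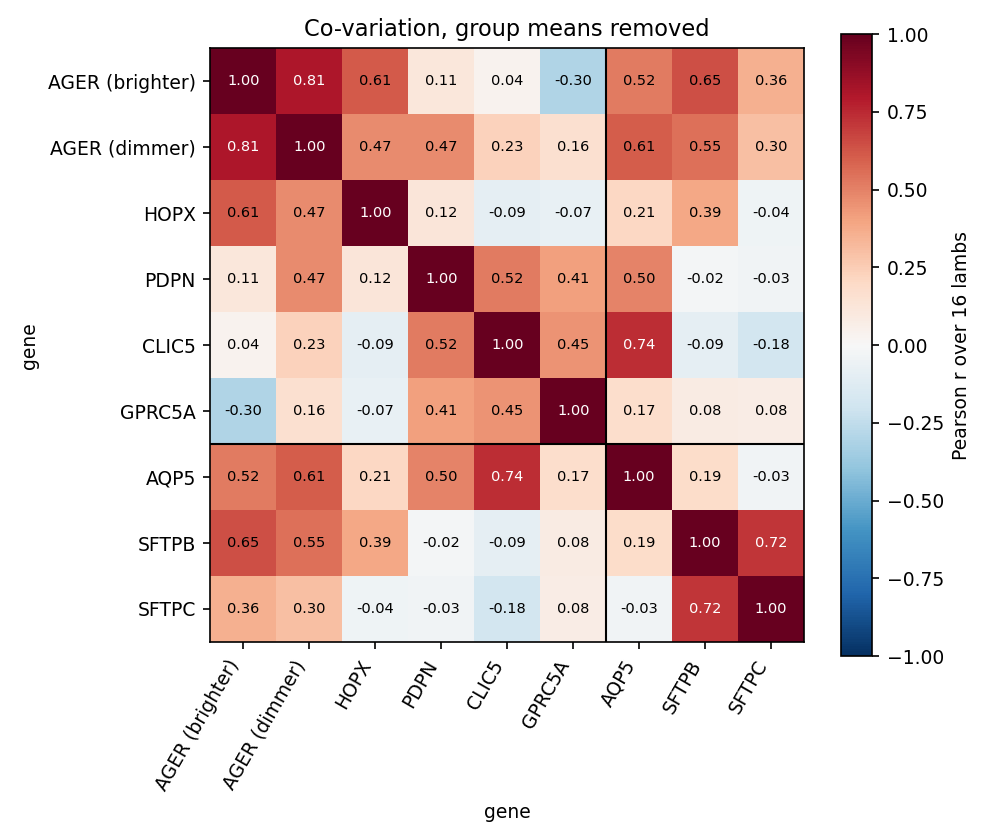
Pearson r over 16 lambs between the 6 probe sets of the type 1 genes and, beyond the black lines, AQP5, SFTPB and SFTPC, after each group's mean was removed; red is positive and blue negative. AGER and HOPX (0.61) and PDPN and CLIC5 (0.52) are the highest pairs of different type 1 genes, and CLIC5 with AQP5 (0.74) is higher than either.

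AQP5, a water channel of the alveolar surface used as a further type 1 marker, and the surfactant protein genes SFTPB and SFTPC of type 2 cells were set beside the members in a family of 15 relations. These relations were made into tests only after the data had been seen. CLIC5 and AQP5 were the only pair of the 15 to pass for r, at 0.74 (permutation p = 0.00056, adjusted p = 0.00840). The rank correlation was rho = 0.73 (permutation p = 0.00355, adjusted p = 0.0532), just short of the threshold. Within shunt lambs r was 0.86 (exact permutation p = 0.00843) and within control lambs 0.80 (exact permutation p = 0.0190). Neither passed after adjustment over the 15 relations in each group (adjusted p = 0.126 and 0.244). Without control replicates 2 and 5, the lambs farthest from the median of CLIC5, r was 0.57 (permutation p = 0.0363), and with any 1 array left out it lay between 0.67 and 0.80.

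The highest value of AGER in this family was with SFTPB, r = 0.65 (rho = 0.63, permutation p = 0.00903 and 0.0147, adjusted p = 0.0677 and 0.110), with 0.52 within shunt and 0.76 within control (exact permutation p = 0.188 and 0.0325). Without control replicates 4 and 7 it was 0.55 (permutation p = 0.0538). With AQP5 its r was 0.52 (rho = 0.49, permutation p = 0.0455 and 0.0698, adjusted p = 0.227 and 0.349), and 0.50 without the 2 farthest lambs. PDPN had r = 0.50 with AQP5 (rho = 0.39, permutation p = 0.0610 and 0.152, adjusted p = 0.229 and 0.571). With SFTPB, r was 0.39 for HOPX (permutation p = 0.145), -0.02 for PDPN and -0.09 for CLIC5. The CLIC5 value joined 0.41 within shunt and -0.30 within control (exact permutation p = 0.313 and 0.456). No member passed with SFTPC, where r ran from -0.18 for CLIC5 to 0.36 for AGER. Whether the r of AGER and of CLIC5 with SFTPB differ was not tested.

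**Figure D3:**
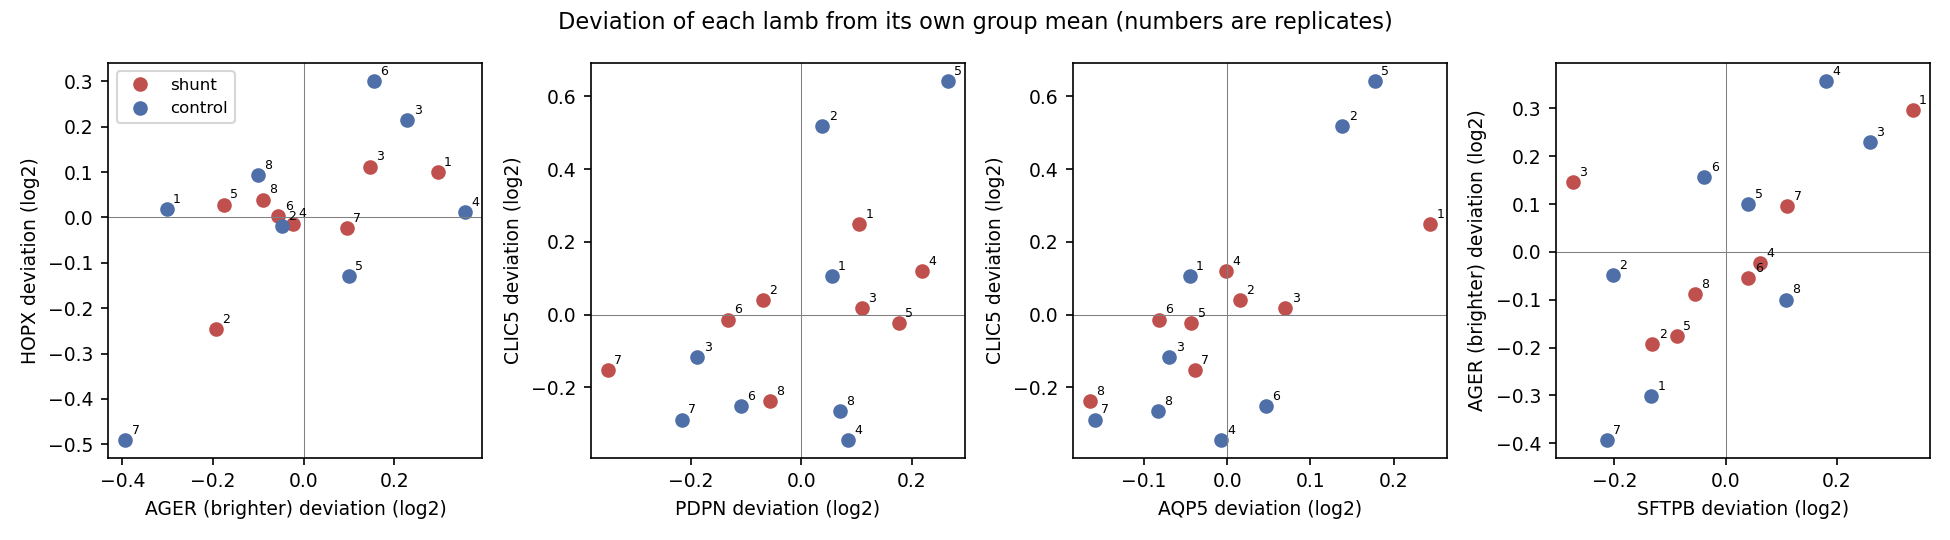
Deviation of each lamb's log2 level from its own group mean for 4 gene pairs, with points numbered by replicate (red shunt, blue control; n = 8 each). CLIC5 rises with AQP5 in both groups (r = 0.74), AGER with SFTPB (r = 0.65) and with HOPX (r = 0.61), where control replicate 7 lies lowest, and PDPN with CLIC5 (r = 0.52), where control replicate 5 lies highest.

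The genes whose pattern over the 16 lambs was most like each member were found by the highest r of these deviations among named, not dim, probe sets. They are a description with no p, since they were picked as the highest of many. AGER was followed most closely by NOP53 (r = 0.89), IFT122 (0.87) and TLE5 (0.85), and PDPN by TCEAL4 (0.92), MRPL10 (0.91) and DMAC2L (0.90). The closest to CLIC5 were PHF11 (r = 0.87, but 0.20 within shunt), AZGP1 (0.86) and HYI (0.84). HOPX was matched best by CAMK2G (0.82), RPL17 (0.81) and SEPTIN2 (0.80), with rho of 0.45 to 0.62, and GPRC5A by SHOC2 (0.88), MYLIP (0.88) and GALNT1 (0.87). No gene was in the top 3 of more than 1 member. By the mean r over the 5 members the leading genes were ALDH2 (0.50), CCNI (0.49), HBP1 (0.48), GOLGA5 (0.48), COL4A3 (0.47) and ANXA5 (0.47). COL4A3, a chain of the basement membrane collagen that type 1 cells make, had r = 0.68 with CLIC5 and 0.55 with PDPN, against 0.38 with AGER and 0.33 with HOPX. COL4A3 itself differed by -0.10 between the groups, with another probe set at -0.07.

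A wider list of type 1 genes leaned the same way, with exceptions. Of its 30 genes 20 were measured, and 15 had a lower mean and 5 a higher mean in shunt, with a median difference of -0.10, against -0.014 over all 9155 genes. None passed over all probe sets (limma), and 6 were lower and 1 higher at an unadjusted p under 0.05. Of all 9155 genes, 725 were lower and 617 higher at that level, and 55.1% had a lower mean in shunt. The counts of the lists below are to be read against the same background. AQP5 was 9.78 ± 0.12 in shunt and 10.04 ± 0.11 in control (SD, n = 8 each), a difference of -0.26 ± 0.06 (SE, limma adjusted p = 0.115), with each of the 8 shunt lambs below the mean of control. KRT19, an epithelial keratin, differed by -0.44 ± 0.13 (adjusted p = 0.212) and SEMA3B, a secreted semaphorin, by -0.16 ± 0.06 (adjusted p = 0.259), all by limma. The other 3 that were lower, SPOCK2 (-0.18), CYP4B1 (-0.47) and CLDN18 (-0.24), are named after their values were seen. IGFBP2, a binding protein for insulin-like growth factors that marks mature type 1 cells in mouse, went the other way, at 0.70 ± 0.14 (limma adjusted p = 0.0609) from a probe set at percentile 26.4 of signal. The caveolin genes CAV1 and CAV2, which capillary endothelium also expresses, were at 0.03 and 0.08, with the other probe set of CAV1 at -0.04 and those of CAV2 at 0.16 and -0.02, and are likewise named after their values were seen.

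**Figure D4:**
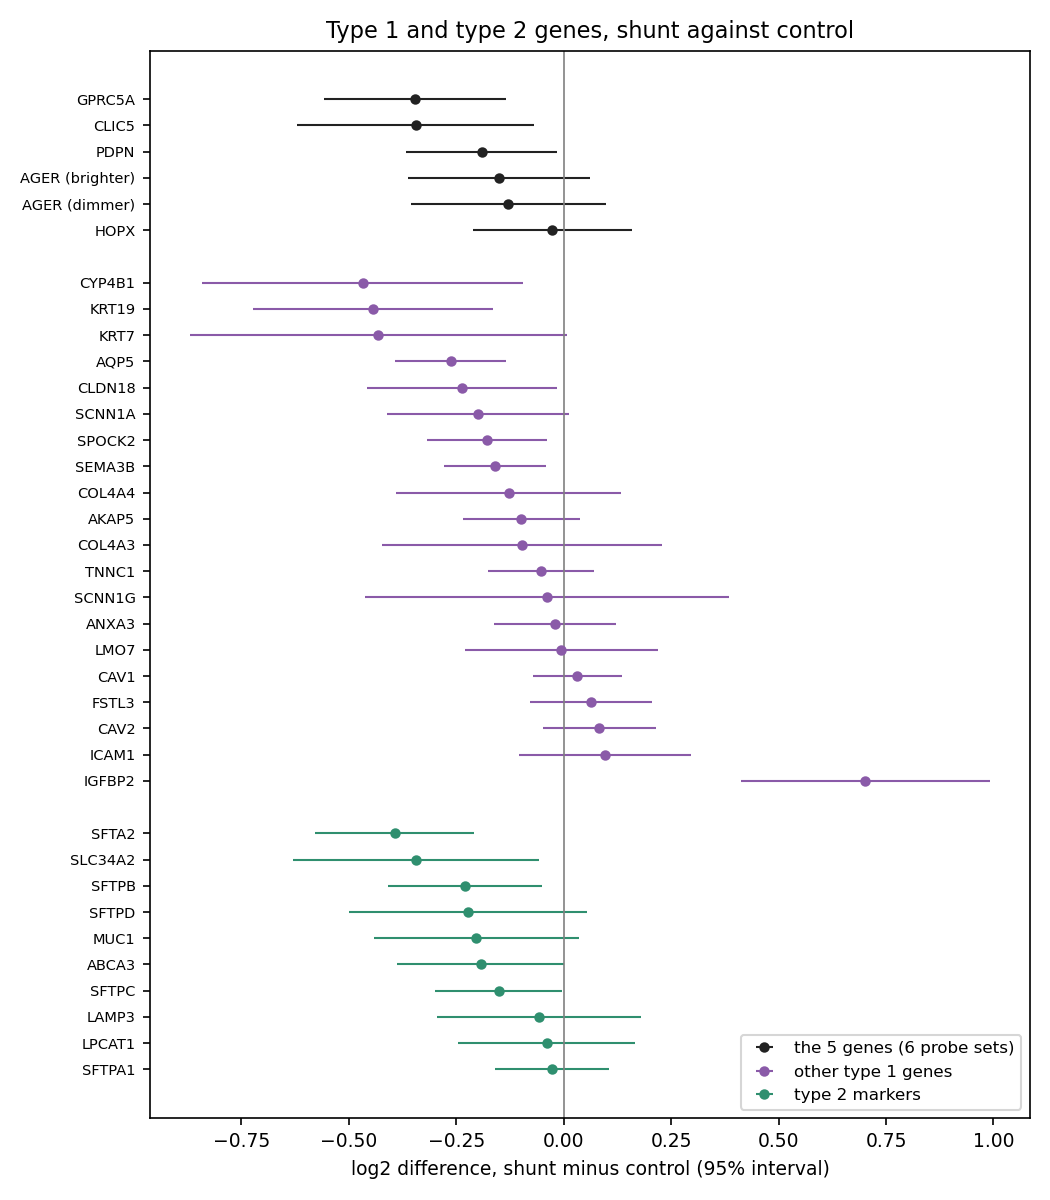
Log2 difference, shunt minus control, with its 95% interval from limma (n = 8 each) for the 6 probe sets of the type 1 genes, the 20 other type 1 genes and the 10 type 2 markers; the grey line marks no difference. All 6 probe sets and all 10 type 2 markers lie left of it, and IGFBP2 at 0.70 lies farthest to the right.

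Genes that act with or on the members were read from lists as well, none of which held a gene that passed (limma). Among partners of PDPN, CLIC5 and EMP2, 8 of 11 measured genes were higher in shunt, 5 at an unadjusted p under 0.05 and 0 lower (median 0.07). The higher ones included the integrin chains ITGAV (0.44 ± 0.11, adjusted p = 0.141) and ITGB1 (0.14 ± 0.04), RDX (0.15), a membrane to actin linker of the ezrin family, and CD44 (0.24), a hyaluronan receptor. The 3 with a lower mean were NHERF1 (-0.10), TPRN (-0.08, its other probe set at 0.01) and EZR, ezrin itself (-0.07). These are named after their values were seen. Among ligands and adaptors of the AGER receptor, 4 of 9 were higher (median -0.01), with APP at 0.17, ADAM10 at 0.10 and the alarmin gene HMGB1 at 0.08. The other 5 were lower, with MMP9 at -0.29. Regulators of type 1 cells, mostly of the YAP and TEAD pathway, had 4 of 12 higher (median -0.03), with TEAD3 at -0.16 and SRF at -0.15. The pathway's target CCN2 was at 0.38 ± 0.18 (SE), and CCN1, another target, at -0.24 ± 0.37. CCN1 is named after its values were seen. NKX2-1 had no probe set with its symbol alone. Genes of the transitional state between type 2 and type 1 cells had 2 of 8 higher (median -0.07), with LGALS3 at -0.22 and CLDN4 at -0.13.

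Markers of type 2, airway secretory and basal cells and of epithelium in general had lower means in shunt like the members, and their part in the result was not tested. The 2 measured of 7 airway ciliated markers did not, with TUBA1A at 0.02 and TPPP3 at 0.0041. Of 13 type 2 markers 10 were measured and all 10 had a lower mean in shunt, 4 of them at an unadjusted p under 0.05 (median -0.20), with SFTA2 at -0.39 ± 0.09, SLC34A2 at -0.34, SFTPB at -0.23 (its other probe set at -0.05) and SFTPC at -0.15. Their mean log2 level ran from 9.82 to 10.28 in shunt lambs and from 10.06 to 10.37 in control lambs. All 7 general epithelial markers were lower on average, 4 at an unadjusted p under 0.05 (median -0.16), with CDH1 at -0.19 and CLDN3 at -0.27, and their mean level ran from 9.47 to 9.87 in shunt and from 9.66 to 9.96 in control. Airway secretory and basal markers were lower in 5 of 5 measured of 9 (median -0.24), with TFF3 at -0.63, and ran from 6.83 to 7.42 in shunt and from 7.01 to 7.87 in control. Over the 5 type 1 genes the mean level ran from 10.47 over a median of 10.61 to 10.76 in shunt and from 10.51 over 10.81 to 11.06 in control. All 8 shunt lambs lay below 7 of the 8 control lambs, and control replicate 7 lay among the shunt lambs. Shunt replicate 1 was the highest of the shunt lambs for these 5 genes and for the type 2 markers, and control replicate 7 was the lowest of the control lambs for both and for the epithelial markers.

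Markers of vessel wall cells were mostly on the other side. Endothelial markers had 9 of 12 higher (median 0.09, 4 at an unadjusted p under 0.05), led by PECAM1 (0.28 ± 0.05, limma adjusted p = 0.0609). The other PECAM1 probe set, which was dimmer, stood at 0.35 ± 0.06 (SE). Measured against its SE, that difference was larger than the difference of the brighter probe set, and its adjusted p is not given here. Counts of list genes that passed, given further below, read each gene by its brightest probe set and leave this one out. The mean level of the endothelial markers ran from 8.96 to 9.20 in shunt and from 8.84 to 9.20 in control. Smooth muscle markers had 5 of 6 measured of 7 higher (median 0.30), from 10.44 to 10.77 in shunt and from 10.19 to 10.76 in control. PDPN is shared with lymphatic endothelium and mesothelium. Lymphatic markers had 2 of 4 measured of 5 higher (median 0.17, from 8.86 to 9.25 in shunt and from 8.53 to 9.26 in control), and mesothelial markers, KRT19 among them, 0 of 3 measured of 5 (median -0.13, from 7.43 to 7.93 in shunt and from 7.58 to 8.15 in control), with MSLN at -0.01. The arrays give no detection calls, so no marker can be called absent.

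**Figure D5:**
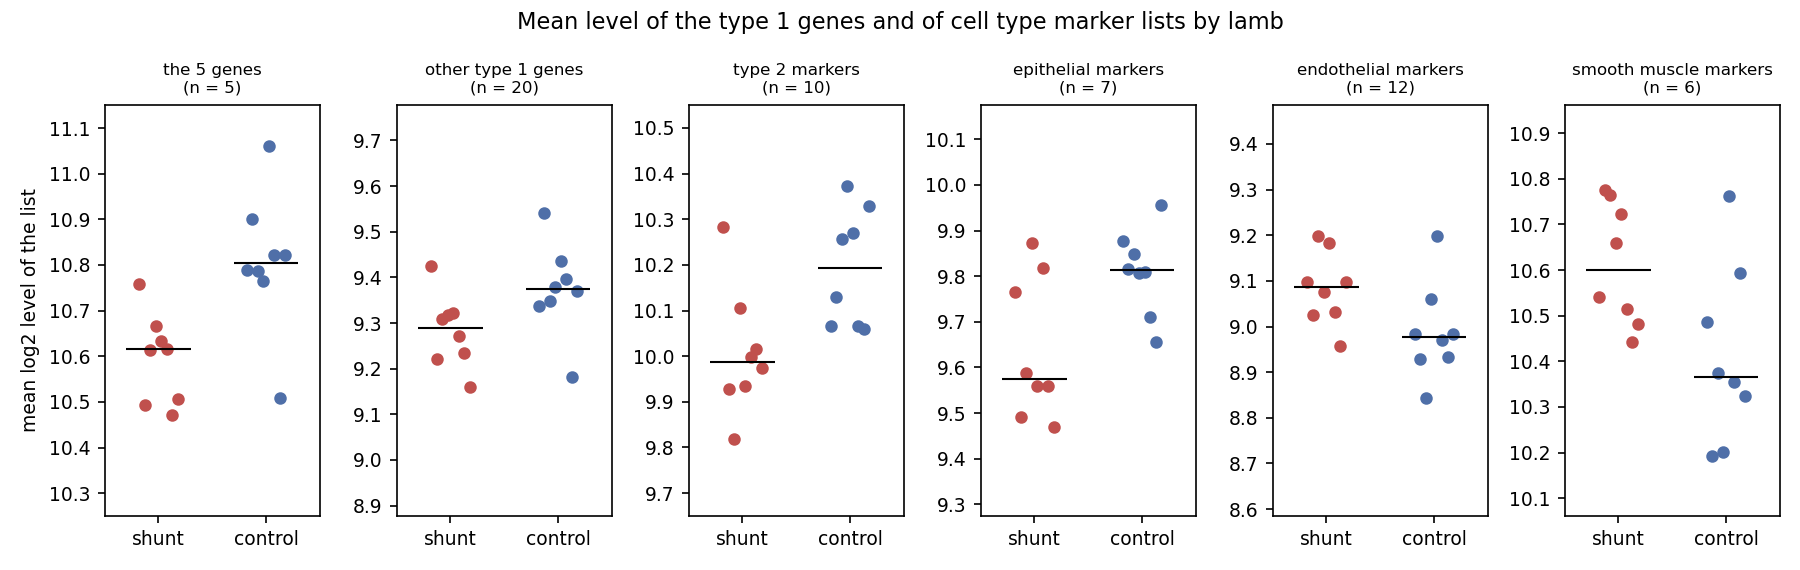
Mean log2 level of each list in each lamb, with 1 point per lamb and a line at the median of the group (n = 8 shunt, n = 8 control); n in a title is the number of genes. The type 1, type 2 and epithelial lists sit lower in shunt and the endothelial and smooth muscle lists higher, and the groups overlap in all 6 panels.

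By correlation the arrays were closely alike. Mean correlations with the other 15 arrays ran from 0.991 to 0.993 in shunt and from 0.983 to 0.993 in control, with control replicate 2 the lowest. The limma array weight of control replicate 2 was 0.23, and those of the other arrays ran from 0.73 to 1.68. Array medians were 7.14 ± 0.01 in shunt and 7.16 ± 0.02 in control (SD, n = 8 each, exact permutation p = 0.000777). Centring on the medians moved every difference by 0.02 towards higher and left CLIC5 and GPRC5A lower at an unadjusted p under 0.05. PDPN was then above that level (limma unadjusted p = 0.0650), and the HOPX difference was -0.0033.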

How the data were processed

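The values are on the log2 scale, as the authors deposited them. The submitters' processing notes name RMA, without a version, and 1 ug of total RNA per array was labelled with biotin. RMA subtracts background, normalizes arrays by quantiles and summarizes the probes. Scan batches were not analysed here, and the number of arrays limits the precision. The table held 24128 probe sets, of which 112 manufacturer controls were left out. Symbols came from the platform annotation, with 1 symbol for 13292 probe sets, several for 86 and none for 10638. No genome of the probes' species was used, so no positions or sequences are given.

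Groups came from sample titles. Shunt was compared with control by limma 3.58.1 in R 4.3.3 (lmFit, eBayes, two-sided, no covariate, Benjamini-Hochberg over 24016 probe sets, threshold 0.05), tested on simulated data. Single differences were also tested exactly over 12870 divisions of the lambs. Correlations used deviations from group means, with 100000 permutations within groups, or all orders within a group of 8, two-sided, in Python 3.11.15 with scipy 1.17.1. A gene was read by its probe set of highest mean.

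Named were all member probe sets, up to 4 genes of smallest p per list, the 3 genes most like each member and the 6 most like their mean (above percentile 25 of signal), and AQP5, SFTPC, SFTPB and NKX2-1. The members and lists were chosen with earlier results of these data known, so the lower means of type 1 and type 2 genes are not independent support. Lists of airway ciliated, fibroblast, macrophage, neutrophil, T cell and erythroid markers were also read. Replicate numbers did not pair lambs. Alternatives were a replicate block, median centring, quantile normalization again, cyclic loess, a dim filter, array weights, a trended robust prior, XIST as a covariate, other probe set rules, other correlation settings and each array left out. Comparing gene pairs within lambs, the relations with AQP5, SFTPB and SFTPC as tests, the count at unadjusted p and leaving out control replicate 2 with shunt replicate 1 were added after seeing the data.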

Additional observations from a re-analysis of the deposited data

Results flagged for a closer look

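A lamb far from its 7 group mates was found, taking its distance from the closest of them as a share of the group's full range (above 0.526), for 8 of 182 sets of values, where chance gives about 1 in 20, or 9.1. Of the members' 12 sets, 1 was among them. Shunt replicate 2 had a HOPX log2 level of 11.82, against 12.04 to 12.17 in the other shunt lambs (ratio 0.621), and without it the HOPX difference was 0.0088 in place of -0.03. Shunt replicate 2 was also the highest of its group for the macrophage receptor gene MSR1 (9.08, next 8.49, ratio 0.576).

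The other 6 were all control replicate 2, the array least like the rest. It had the highest SFN (5.56, next 5.11) and the lowest TUBA1A (12.79, next 13.19), C1QB (8.78, next 9.31), C1QA (11.002, next 11.57), CD68 (8.44, next 9.03) and mean of macrophage markers (8.96, next 9.46) of the control lambs. In CLIC5 it was the second highest control lamb.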

How the results depend on the processing

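No member passed after adjustment under any of the 25 settings tried, and 2 to 4 of 6 were lower at an unadjusted p under 0.05. With any 1 array left out, the differences ran from -0.39 to -0.29 for GPRC5A, -0.39 to -0.25 for CLIC5, -0.22 to -0.14 for PDPN, -0.21 to -0.10 and -0.20 to -0.08 for AGER, and -0.096 to 0.017 for HOPX. The replicate number as a block changed no call among the members (limma adjusted p = 0.231 for GPRC5A); deviations of arrays with the same number had r from -0.26 to 0.22, with 0 of 8 shunt arrays closest to their own number. Of all probe sets, 16 were higher and 1 lower; the higher count was 0 with the replicate block, 25 with median centring, 9 with quantile normalization again, 36 with array weights, 44 at a threshold of 0.10, 30 without control replicate 2 and shunt replicate 1 and 6 to 53 with 1 array left out. The lower count was 0 with the replicate block, 3 without dim probe sets, 9 with array weights, 2 with a trended robust prior, 4 with XIST as a covariate, 11 at 0.10, 9 without those 2 arrays and 0 to 22 with 1 left out. Of the list genes, each read by its brightest probe set alone, 0 passed. PECAM1 did with median centring or a trended robust prior (1 each), SFTA2 and IGFBP2 with array weights (2), and 0 to 4 with 1 array left out. Without shunt replicate 1 these were PECAM1, IGFBP2, ITGAV and AQP5 (-0.30, limma adjusted p = 0.0421), and without control replicate 6 or shunt replicate 7 IGFBP2 alone. Where group means were kept, the difference between groups entered both r and its p, so these values are not co-variation within groups. Then r was 0.60 for AGER with HOPX, 0.65 for PDPN with CLIC5, 0.60 for PDPN with GPRC5A and 0.63 for CLIC5 with GPRC5A, all past adjustment. For AGER with GPRC5A it was 0.0062. Without the 2 farthest lambs r was -0.15 for AGER with PDPN, -0.34 for PDPN with HOPX and 0.14 for CLIC5 with HOPX (0.075 within shunt). It was -0.060 for AGER with CLIC5 within control and 0.16 for the dimmer AGER probe set with GPRC5A. With 1 array left out (5000 permutations) r ran from 0.40 to 0.68 for AGER with HOPX and from 0.36 to 0.61 for PDPN with CLIC5, both past adjustment only without control replicate 4 (adjusted p = 0.0420 each). It ran from -0.088 to 0.22 for AGER with PDPN, -0.13 to 0.23 for AGER with CLIC5, -0.23 to 0.24 for PDPN with HOPX, -0.48 to 0.043 for CLIC5 with HOPX and -0.27 to 0.035 for HOPX with GPRC5A. The cause of these shifts was not tested.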

Other observations

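Marker lists of further cell types were read as values only, and whether these cells express the members was not tested. Fibroblast markers had 4 of 7 higher in shunt (median 0.00071), with LUM, a collagen-binding proteoglycan, at 0.60 ± 0.24 and COL1A1 at 0.20. Among the 3 that were lower, DCN was at -0.29 and TCF21 at -0.11. Macrophage markers had 1 of 4 higher (median -0.11). This was MSR1 at 0.50 ± 0.15, with its other probe sets at -0.14 and 0.11. The 3 that were lower were C1QB (-0.21), C1QA (-0.17) and CD68 (-0.05). T cell markers had 3 of 6 higher (median -0.03) and erythroid markers 3 of 5 (median 0.08), with HBB at 0.68 ± 0.35 and its other 3 probe sets at -0.31, -0.06 and 0.10. Neutrophil markers were lower in 6 of 6 (median -0.18), with the granule protease ELANE at -0.24 and 3 genes at an unadjusted p under 0.05. None of these genes passed over all probe sets (limma).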
